A study of Sus scrofa with 14 samples.

Results

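HBE1 encodes the embryonic epsilon chain of hemoglobin and HBB its adult beta chain. Each was measured by 1 probe set of the Affymetrix porcine array (NCBI gene 407067 for HBE1, 407066 for HBB). They were taken as all probe sets whose only gene symbol in the platform annotation is HBE1 or HBB, which gave 2 of the 23999 tested, or 2 of 6765 named genes. They were chosen by their measured log2 levels per array, set beside each other and beside PAG6. That pattern over arrays is given as a description without a test. Relations of HBB with other signals were tested by permutation. The levels of HBB were part of the choice, so those p-values are not independent evidence. The difference between prolificacy groups was not part of that choice and was tested in the fit over all probe sets, but it was known from earlier results, so its p-values are not independent evidence. The tissue is uterus, frozen in liquid nitrogen after slaughter, of 14 F2 sows bred from Iberian and Meishan pigs, taken at days 30 to 32 of the fifth pregnancy. Of these, 5 sows were classed as of high prolificacy and 9 as of low prolificacy, and each sow had 1 array. All were pregnant, and the labels do not say from which layer of the uterus, or how near to a conceptus, a piece was cut.

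Hemoglobin is built of alpha-type and beta-type globin chains, each holding a heme. The first red cells of an embryo arise in the yolk sac and use embryonic chains, epsilon among them. Later red cells, made in the fetal liver and then in marrow, use adult chains, so adult beta chain can come from the fetus as well as from the dam. In the pig the placenta lies against the uterine epithelium without invading it, and maternal and fetal blood run in separate vessels. The beta-type genes lie side by side in a cluster. RefSeq's Sscrofa11.1 table lists 2 other genes between HBB and HBE1, and near-identical globin copies can share probes. The annotation ties the HBE1 probe set to the RefSeq mRNA of that gene, and the HBB probe set to an accession that is not among the RefSeq mRNAs of HBB.

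Some arrays stood apart. Poly-A spike-ins, foreign transcripts added to the RNA before labelling, had their highest mean levels in high 5 and low 3, at log2 8.00 and 7.23, and the other arrays lay between 5.33 and 7.05. Smooth muscle and epithelium also differed between the groups. In limma at an adjusted p of 0.05, all 15 of the measured smooth muscle genes of the myometrium fell in high prolificacy (5.42% of all genes fell), and 8 of 15 uterine epithelium genes rose (5.34% of all genes rose). In bulk tissue, fewer cells of a type and less RNA per cell cannot be told apart.

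HBE1 was high in some arrays and low in others of both groups. Its log2 levels in high prolificacy were 3.97, 4.94, 6.01, 12.57 and 6.20 for high 1 to high 5. In low prolificacy the lowest level was 4.02 in low 9, the median 9.42 in low 7 and the highest 12.65 in low 5. The groups overlapped over nearly their whole range, and the order of all arrays began with low 5, high 4, low 4, low 1, low 2 and low 7. The widest gap in that order, 3.22 on the log2 scale, lay between low 7 at 9.42 and high 5 at 6.20. Above it stood 6 arrays, 1 of high and 5 of low prolificacy, and below it 8 arrays, 4 of each group. Low 5 and high 4 differed by 0.074, and low 4 and low 1, both close to 10.9, by 0.025.

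HBB followed another order. As a description, the r of HBB with HBE1 was 0.068 over all 14 arrays. It was -0.78 over the 6 arrays above the gap in HBE1 and -0.58 over the 8 below it. Its log2 levels in high prolificacy were 7.71, 6.92, 6.36, 6.21 and 4.00 for high 1 to high 5. In low prolificacy the lowest was 5.78 in low 3, the median 7.80 in low 7 and the highest 8.11 in low 6. Most arrays lay within a narrow band, and high 5 stood 1.77 below the next array, low 3. These are the arrays with the highest spike-in signal. High 1, which had the lowest HBE1 of all 14 arrays, had the highest HBB of the high prolificacy arrays. High 4 had the second highest HBE1 of all arrays and an HBB level of 6.21, below 8 of the 9 low prolificacy arrays.

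**Figure D1:**
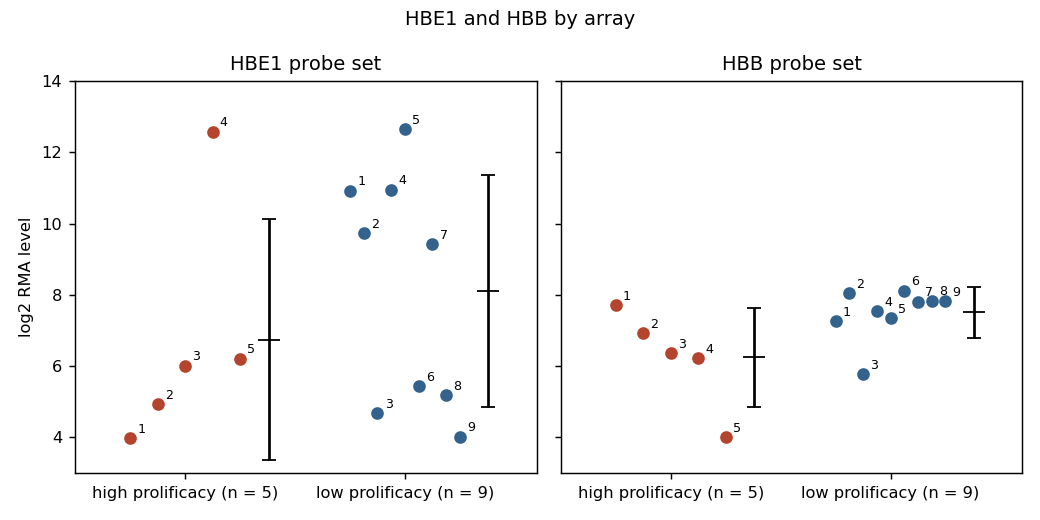
Log2 levels of the HBE1 probe set (left) and the HBB probe set (right) in each array of high prolificacy (red, n = 5) and low prolificacy (blue, n = 9), with the replicate number beside each point and the group mean ± SD as bars. HBE1 leaves a gap between 6.20 and 9.42 in the order of all arrays, and HBB of high 5 lies at 4.00, below every other array.

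The study set high against low prolificacy. HBE1 averaged 6.74 ± 3.38 (SD) over the 5 high prolificacy arrays and 8.11 ± 3.26 (SD) over the 9 of low prolificacy. The difference was -1.37 ± 1.67 (SE, limma adjusted p = 0.72), with a 95% interval from -4.94 to 2.20. HBB averaged 6.24 ± 1.38 (SD) in high prolificacy and 7.50 ± 0.71 (SD) in low prolificacy. Its difference was -1.26 ± 0.50 (SE, limma adjusted p = 0.16, unadjusted p = 0.025), with a 95% interval from -2.34 to -0.18. Of the 2 probe sets, 0 were called at an adjusted p of 0.05 and 1 had an unadjusted p under 0.05, while 7.85% of all probe sets were called (3.5% higher and 4.35% lower in high prolificacy) and 21.1% had an unadjusted p under 0.05. The interval of HBE1 holds both a large fall and a rise, so these arrays leave its size and direction unsettled.

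Single arrays weighed on both differences. Without high 4 the HBE1 difference was -2.83 (limma adjusted p = 0.33), and without high 1 it was -0.68 (0.86). Without high 5 the HBB difference was -0.70 (limma adjusted p = 0.36). Without both high 5 and low 3, a choice made after seeing the data, HBB fell by 0.92 on the log2 scale and passed (limma adjusted p = 0.048). With the smooth muscle and epithelium list means as covariates, the HBB difference was 0.43 (limma adjusted p = 1), a fit in which 0 probe sets were called.

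Other red cell genes were looked at to see whether the globin probe sets moved with them. HBM is a globin of the alpha cluster, AHSP a chaperone of free alpha chains, and ALAS2 the erythroid enzyme that starts heme synthesis. HBM had log2 levels of 7.02, 6.09, 5.79, 6.58 and 7.41 in high 1 to high 5, and in low prolificacy from 5.14 in low 9 over a median of 6.29 to 7.67 in low 2. ALAS2 had 8.21, 6.95, 5.83, 7.70 and 8.46 in high 1 to high 5, and in low prolificacy from 5.57 in low 9 over a median of 7.26 to 9.61 in low 2. These genes rose and fell together across the 14 arrays. HBM and AHSP correlated with r = 0.93 and rho = 0.91 (permutation p = 2e-05 for each, adjusted 6e-05 and 9e-05 over 9 relations). Without low 2 and low 9, the 2 arrays farthest from the median of HBM, that r was 0.89. HBM and ALAS2 gave r = 0.95 and rho = 0.97 (permutation p = 2e-05 for each, the smallest that these resamples can give, adjusted 6e-05 and 9e-05). AHSP and ALAS2 gave r = 0.97 and rho = 0.95 (permutation p = 2e-05 and 4e-05, adjusted 6e-05 and 0.00012), and in the 9 low prolificacy arrays alone the 3 pairs had r between 0.95 and 0.98.

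No relation of HBB with this trio passed the test, with p-values that are not independent evidence, since HBB was chosen by its levels. Its correlation was r = -0.36 and rho = -0.30 with HBM (permutation p = 0.22 and 0.30, adjusted 0.28 and 0.38). It was r = -0.22 and rho = -0.20 with AHSP (permutation p = 0.47 and 0.49, adjusted 0.47 and 0.49) and r = -0.25 and rho = -0.27 with ALAS2 (permutation p = 0.41 and 0.34, adjusted 0.46 and 0.38). The median r with HBB over all 6765 genes was -0.28, so the trio lay near the value of the array as a whole. Without the 2 arrays farthest from the median of the other gene, the r of HBB with HBM, AHSP and ALAS2 were -0.51, -0.27 and -0.41. The arrays left out were low 2 and low 9 for HBM and ALAS2, and high 3 and low 9 for AHSP. High 5 and low 3, with the lowest HBB, stayed in, and r without them was not computed. Within the 9 low prolificacy arrays the r of HBB with the trio were -0.35, -0.45 and -0.29. High 5, with the lowest HBB, had the highest HBM and ALAS2 of the high prolificacy arrays, and low 9, with the lowest HBM, AHSP and ALAS2 of all arrays, had an HBB level of 7.81. HBB was thus not shown to move with or against these red cell genes, and it is called here by its annotation alone. Which transcript it measured was not tested.

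HBE1 did not follow the trio in full. ALAS2 lay between 6.89 and 9.61 in the 6 arrays with high HBE1 and between 5.57 and 8.46 in the other 8. High 5, high 1 and low 3 had ALAS2 of 8.46, 8.21 and 8.09 with HBE1 of 6.20, 3.97 and 4.68. Low 7 had a lower ALAS2, 6.89, with HBE1 at 9.42. So every array with high HBE1 had ALAS2 of 6.89 or more, and some arrays with high ALAS2 had little HBE1. As a description, r with HBE1 over all 14 arrays was 0.46 for ALAS2, 0.47 for AHSP and 0.34 for HBM, against a median of 0.0001 over all genes. HBE1 fell into 2 sets of arrays, so such pooled r carry no test.

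**Figure D2:**
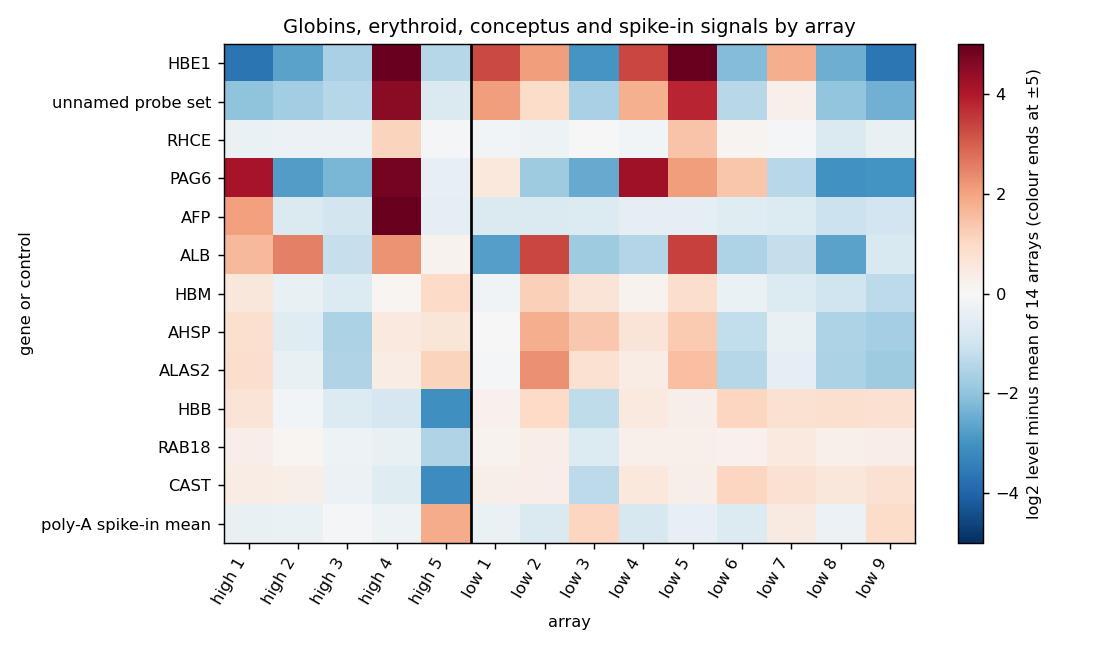
Log2 level minus the mean over all 14 arrays (colour, ending at ±5) for named genes, 1 unnamed probe set and the poly-A spike-in mean (rows) in each array (columns, high prolificacy left of the line and low prolificacy right of it). HBE1 is high in high 4, low 1, low 2, low 4, low 5 and low 7, the rows HBM, AHSP and ALAS2 share another pattern, and HBB, RAB18 and CAST share yet another, lowest in high 5.

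The remaining erythroid genes gave no call between the groups. Of 9 erythroid genes on the array out of 32 listed, 0 rose and 0 fell in limma, and 3 had an unadjusted p under 0.05 (median difference 0.37, against 0.073 over all genes). Beside these, 5.34% of all genes were called higher and 5.42% lower. ALAS2 differed by 0.14 (95% interval -1.29 to 1.56), AHSP by -0.094 (-1.44 to 1.25) and HBM by 0.18 (-0.70 to 1.06), none of them called. In 13 of 26 alternatives 1 erythroid gene passed, DMTN in 9 of them and BPGM in 4. DMTN, dematin of the red cell membrane skeleton, had a difference of 0.89 (limma adjusted p = 0.060), and BPGM, which makes the allosteric effector of hemoglobin, 0.56 (0.11). RHCE, a Rh blood group protein of the red cell surface, had its highest levels, 5.46 and 5.16, in low 5 and high 4, the arrays with the most HBE1, and lay between 3.31 and 4.16 in the rest. SLC25A37, mitoferrin of red cell precursors, was at 8.64 in high 4, 8.38 in low 1 and 8.12 in low 5. High 1, with the least HBE1, had a SLC25A37 level of 7.88. RHCE and SLC25A37 had the highest r with HBE1 of the 9 erythroid genes, 0.67 and 0.65, where the list median was 0.46. DMTN had the lowest, -0.23, and was highest in high 5 at 7.97 and high 3 at 7.86, both with low HBE1.

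PAG6 encodes a pregnancy-associated glycoprotein made by the trophoblast. Its brightest probe set had log2 levels of 10.74, 3.86, 4.33, 11.43 and 6.21 in high 1 to high 5. In low prolificacy it ran from 3.60 in low 8 over a median of 5.24 in low 7 to 10.89 in low 4. PAG6 and HBE1 were both high in high 4, low 4 and low 5, the last with PAG6 of 8.74, and low 1 had PAG6 of 7.18 with HBE1 of 10.92. Both were low in high 2, high 3, low 3, low 8 and low 9. As a description, r between HBE1 and PAG6 was 0.78 over the 6 arrays with high HBE1 and -0.17 over the other 8. They parted in other arrays. High 1 had PAG6 of 10.74 and HBE1 of 3.97, and low 6 had PAG6 of 8.03 and HBE1 of 5.43. Low 2 had PAG6 of 4.87 and HBE1 of 9.72, and low 7 PAG6 of 5.24 and HBE1 of 9.42. High 1 was at 9.60 and 10.91 in the other PAG6 probe sets, and low 2 at 5.01 and 4.20, so the contrast between these arrays held in all 3 probe sets. In low 7 the other PAG6 probe sets read 7.20 and 6.18.

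**Figure D3:**
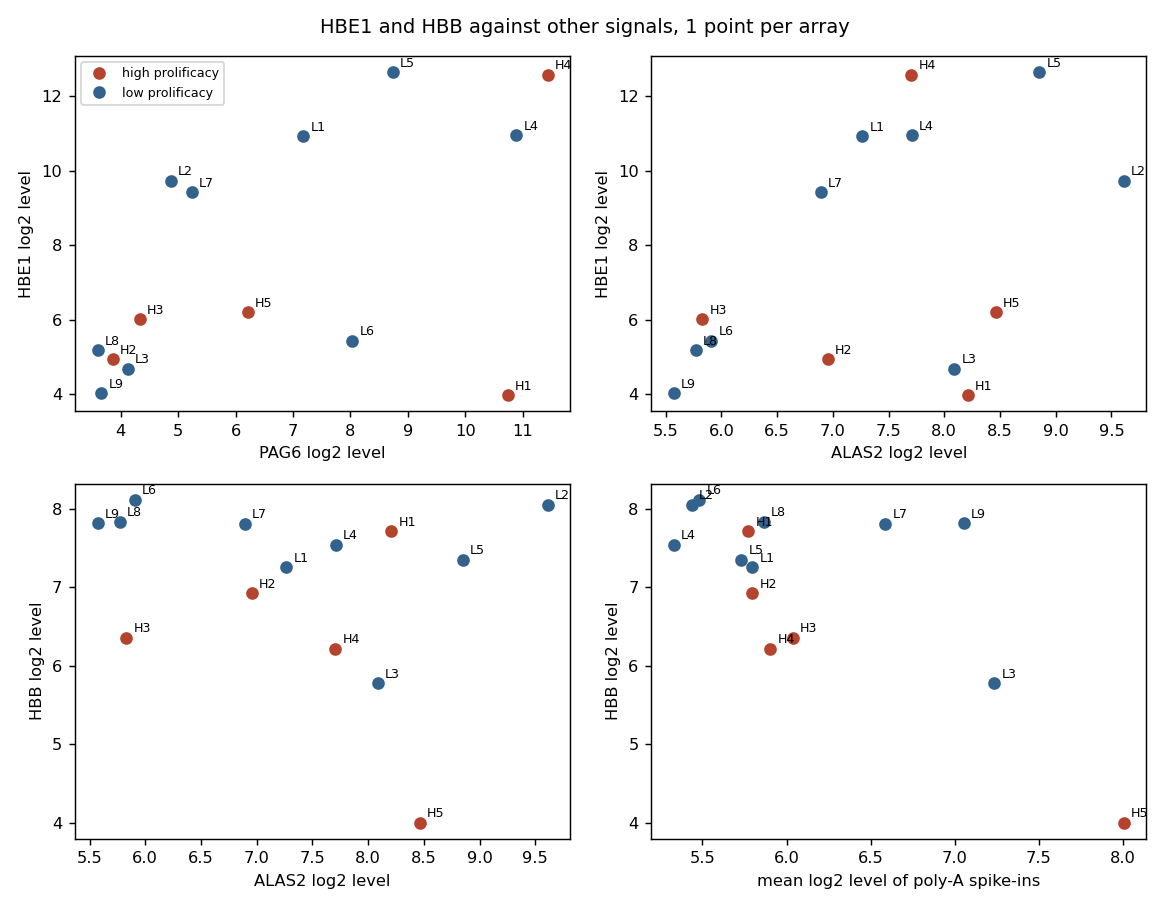
Log2 levels of HBE1 against PAG6 (top left) and ALAS2 (top right), and of HBB against ALAS2 (bottom left) and the mean of the poly-A spike-ins (bottom right), with 1 point per array, red for high (H) and blue for low (L) prolificacy. High 1 has PAG6 of 10.74 with HBE1 of 3.97, and high 5 joins the highest spike-in mean of 8.00 to the lowest HBB of 4.00.

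PAG6 did not differ between the groups past the threshold either, with 7.32 ± 3.56 (SD) over high and 6.26 ± 2.57 (SD) over low prolificacy arrays and a difference of 1.06 ± 1.49 (SE, limma adjusted p = 0.77). Of 14 trophoblast and fetal membrane genes on the array, 0 rose and 0 fell, and 1 had an unadjusted p under 0.05 (median difference 0.40). Over all genes 5.34% rose and 5.42% fell, and 21.1% of all probe sets had an unadjusted p under 0.05, so this count does not set the list apart. The steroid enzymes CYP17A1 and HSD3B1, chosen after their values were seen, were highest in high 4, at 9.05 and 9.59. Low 4 had 6.51 and 7.24. CYP17A1 had the highest r with HBE1 of these 14 genes, 0.67, and HSD3B1 had 0.60. The list median was 0.33 and the lowest r was -0.63, so the list did not follow HBE1 as a whole. One CYP19A1 probe set, singled out after its values were seen, read 7.90 in high 4, 5.83 in low 4 and 5.51 in low 5, and between 2.51 and 2.98 in the other 11 arrays. CYP19A1 is aromatase, which the pig conceptus uses to make estrogen. These 3 arrays were among the 4 with the most HBE1, and the other CYP19A1 probe sets stayed between 2.66 and 4.89.

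Plasma protein genes that the yolk sac and fetal liver express strongly were set beside HBE1. AFP, alpha-fetoprotein, had log2 levels of 6.78, 4.02, 3.82, 11.103 and 4.28 in high 1 to high 5, and from 3.66 over a median of 4.05 to 4.29 in low prolificacy. AHSG, fetuin A, had 8.32, 7.00, 7.08, 12.98 and 6.66 in high 1 to high 5, and from 6.12 over a median of 6.54 to 7.82 in low prolificacy. High 4 was thus alone at the top for both, and low 5, with as much HBE1, had 4.29 of AFP and 7.05 of AHSG. SERPINA1, an antiprotease, was at 12.31 in high 4, 7.17 in low 5 and 6.49 in low 2, and at most 5.89 elsewhere.

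ALB, serum albumin, had another order. It was at 8.29, 9.18, 5.50, 8.90 and 6.85 in high 1 to high 5, and in low prolificacy it ran from 3.93 in low 1 over a median of 5.22 to 10.07 in low 5, with 9.99 in low 2. FGB, the fibrinogen beta chain, was at 10.004 in low 5, 8.44 in low 2 and 8.72 in high 4, and at 7.16 and 7.38 in high 1 and high 2. Low 1 and low 4, both with HBE1 close to 10.9, had FGB of 3.44 and 4.19. Of 16 fetal plasma protein genes on the array, 0 rose and 0 fell, and 4 had an unadjusted p under 0.05 (median difference 1.09, against 0.073 over all genes). Over all genes 5.34% rose and 5.42% fell, and 21.1% of all probe sets had an unadjusted p under 0.05, so these counts do not set the list apart. AFP differed by 1.98 ± 0.91 (SE, limma adjusted p = 0.23) and APOA1, the main apolipoprotein of HDL, by -0.53 ± 0.41 (SE, limma adjusted p = 0.52).

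Genes of heme and iron were read along the order of HBE1. Of 6 heme synthesis genes 0 were called and 1 had an unadjusted p under 0.05, and of 13 heme breakdown and iron genes 0 were called and 2 had one, against 7.85% called and 21.1% with such a p over all probe sets. UROD, a later enzyme of heme synthesis, was at 9.76 in high 4 and at 8.12, 8.09 and 7.88 in low 5, low 4 and low 1, against 7.01 to 7.70 in the other 10 arrays. These 4 arrays were those with the most HBE1. UROD had the highest r with HBE1 of its list, 0.75, where the list median was 0.23 and the lowest -0.10. SLC11A2 was likewise the highest of the heme breakdown and iron list, at 0.76, with a list median of 0.36 and a lowest r of -0.45. Both were singled out after their values were seen. SLC11A2, the divalent metal transporter that carries iron, had its highest levels in low 5, low 2, low 1 and low 4, at 9.24, 9.17, 8.93 and 8.59. It was at 8.04 in high 4 and 6.44 in low 7, both with high HBE1, and at 7.97 in low 6, with low HBE1. TFRC, the transferrin receptor, was at 9.89, 8.55, 8.45 and 8.36 in the same arrays, yet at 7.21 in high 4, 8.12 in low 6 and 4.88 in low 7. ACP5, uteroferrin, the iron protein that porcine glands secrete, lay between 13.12 and 13.75 in high prolificacy and between 11.60 and 13.86 in low prolificacy.

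Among regulators of globin genes, BCL11A, which represses embryonic and fetal globin genes in adult red cells of mouse and human and is also made by lymphoid cells, was 1 of 5 measured and the only one called, where 5.34% of all genes rose and 5.42% fell. BCL11A had log2 levels of 4.24, 5.14, 5.22, 4.43 and 5.65 in high 1 to high 5, and from 3.68 over a median of 3.95 to 4.67 in low prolificacy. It rose by 0.90 ± 0.22 (SE, limma adjusted p = 0.021), and lost the call without high 2 (0.068), high 3 (0.073) or high 5 (0.057). Its difference was 0.040 with the smooth muscle and epithelium covariates (limma adjusted p = 1) and 0.81 with the replicate block (0.25). KLF1, the red cell activator of the adult beta gene, was at 3.99 to 4.42 in high and 3.61 to 4.61 in low prolificacy and was not called. LMO2, a partner of red cell transcription factors, was highest in low 2 at 8.39 and low 5 at 8.09.

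The named probe sets with the highest Pearson r with HBE1 over the 14 arrays were those of SDC2 (r = 0.87, rho = 0.71), UBFD1 (r = 0.86, rho = 0.82), HIGD1B (r = 0.86, rho = 0.93) and THY1 (r = 0.85, rho = 0.71). After them came CD47 (r = 0.84, rho = 0.81), STK17A (r = 0.84, rho = 0.76), MRC1 (r = 0.84, rho = 0.61) and PPIA (r = 0.83, rho = 0.65). These r describe likeness and carry no test. By Spearman's rho, HIGD1B came first among these 8 genes. SDC2, a heparan sulfate proteoglycan of the cell surface, ran from 7.42 to 9.70, with its highest levels in low 5 at 9.70 and high 4 at 9.41. MRC1, the mannose receptor of macrophages, ran from 4.52 to 6.55, highest in high 4. In the 9 low prolificacy arrays alone SDC2 had r = 0.94 and MRC1 r = 0.93 with HBE1. Without the 2 arrays farthest from the median of HBE1, the r of these 8 genes lay between 0.73 and 0.80. A brighter THY1 probe set had r = 0.70 over the 14 arrays. A brighter CD47 probe set had r = 0.12, so the 2 probe sets of that gene disagree.

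Closest of all was a probe set without a gene name in the annotation used here, at r = 0.97. It was at 5.41, 5.65, 5.97, 11.93 and 6.68 in high 1 to high 5, and in low prolificacy it ran from 4.99 in low 9 over a median of 7.65 to 11.20 in low 5. It lay between 7.65 and 11.93 in the 6 arrays with high HBE1 and between 4.99 and 6.68 in the other 8, so the same arrays stood on each side. It was picked out after its values were seen.

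HBB was like far more of the array. Of 23998 other probe sets, 1203 had r over 0.8 with HBB and 1110 had r under -0.8, against 28 and 29 with HBE1. The counts were taken over all 14 arrays and not repeated without high 5 and low 3, the arrays with the lowest HBB. How far they rest on those arrays was not tested. The most alike by name were RAB18 (r = 0.97, rho = 0.78), CAST (r = 0.97, rho = 0.90), DYNC1I2 (r = 0.97, rho = 0.88), TAF13 (r = 0.96, rho = 0.81), SERINC1 (r = 0.96, rho = 0.83), EIF1AX (r = 0.96, rho = 0.91), TBCA (r = 0.96, rho = 0.82) and VPS29 (r = 0.96, rho = 0.75). They encode widely made proteins, among them a small GTPase of membrane traffic (RAB18), the calpain inhibitor calpastatin (CAST) and a dynein chain (DYNC1I2). CAST was at 9.35, 9.26, 8.68, 8.37 and 5.81 in high 1 to high 5, and from 7.66 in low 3 over a median of 9.48 to 10.02 in low 6 in low prolificacy. CAST and HBB were thus lowest in the same arrays, high 5 and low 3. Without those 2 arrays, which lie farthest from the median of HBB, the r of these 8 genes lay between 0.83 and 0.92. The brightest EIF1AX probe set, another than the one named, had r = 0.82.

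**Figure D4:**
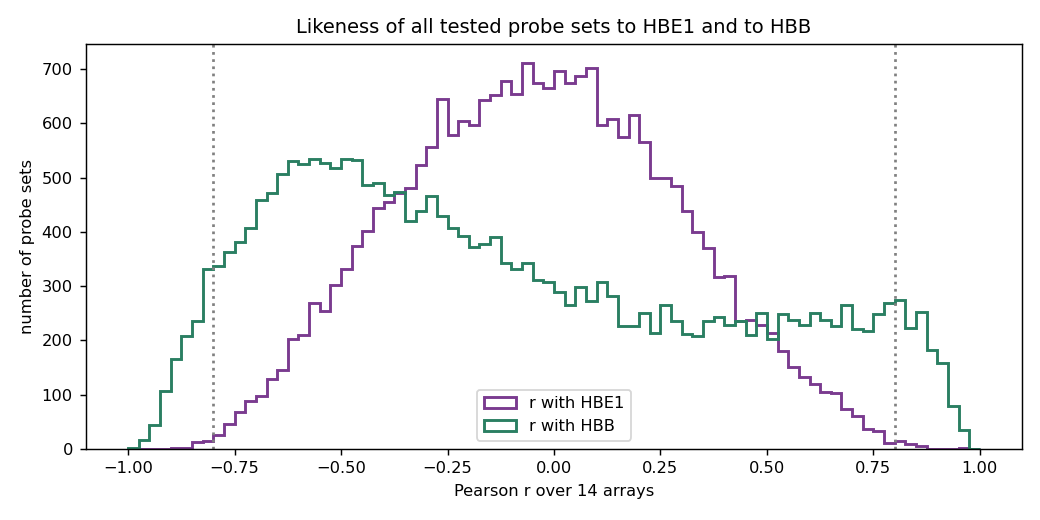
Number of tested probe sets (vertical axis) by Pearson r over the 14 arrays (horizontal axis) with HBE1 (purple) and with HBB (green), with dotted lines at -0.8 and 0.8. Beyond these lines lie 1203 and 1110 probe sets for HBB, and 28 and 29 for HBE1.

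HBB was also set beside the spike-in controls and the tissue lists, with p-values that are not independent evidence, since HBB was chosen by its levels. With the spike-in mean it gave r = -0.71 (permutation p = 0.018, adjusted 0.032) and rho = -0.54 (permutation p = 0.050, adjusted 0.075). Without high 5 and low 3 that r was -0.016, so it rests on those arrays. With the smooth muscle list mean HBB gave r = 0.64 (permutation p = 0.026, adjusted 0.039) and rho = 0.56 (0.039, adjusted 0.070), but r = 0.10 within the 9 low prolificacy arrays. With the epithelium list mean it gave r = -0.61 (permutation p = 0.0072, adjusted 0.016) and rho = -0.75 (0.0027, adjusted 0.0061), and r = -0.41 within low prolificacy. Their part in the HBB difference between the groups was not tested beyond the fits with covariates given above. With the spike-in mean as covariate, a fit added after seeing the data, the HBB difference was -1.03 (limma adjusted p = 0.076).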

How the data were processed

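Uterine total RNA (RiboPure) was made into biotin cRNA for Affymetrix porcine arrays, 1 per sow, per the labels' protocols. The authors deposited log2 values for each probe set; the submitters' processing notes name RMA, and its version is not given here. RMA makes the distributions of arrays alike, and array medians lay between 5.73 and 5.84. Depth does not apply, the number of arrays limits precision, and no detection calls were used.

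Of 24123 probe sets, 124 controls were left out and 23999 tested with limma 3.58.1 in R 4.3.3 (lmFit, eBayes, two-sided, no covariate), adjusted by Benjamini-Hochberg over all, with a threshold of 0.05. Symbols came from the platform annotation; 10069 tested probe sets had 1 symbol, 198 several and 13732 none, and 9961 gene numbers were found in the Sscrofa11.1 table. A gene in a list is its brightest probe set. Correlations used 100000 resamples, two-sided (scipy 1.17.1). A list mean averages its genes' levels, each centred over the arrays. The fit was tested on simulated data.

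Named genes were the members, PAG6, all genes of 3 lists (other globins, erythroid, fetal plasma), the 3 smallest p of other lists, where described, and the 8 most alike to each member by r. Other genes named with values from the lists were chosen after their values were seen. The members and lists were chosen with earlier results of these data known. Because the members have 1 probe set each, the planned mean over several could not differ. No probe, protein or promoter sequence is printed.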

Additional observations from a re-analysis of the deposited data

Results flagged for a closer look

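Arrays far from the rest of their group were searched for in 52 sets of values, and 8 stood out. Chance marks about 5% of such sets. The sets are not independent, since they hold many fetal plasma genes and several probe sets of PAG6. They also hold the HBE1 and HBB levels that guided the choice, so the count is a description and not a test. HBE1 in high 4, at 12.57, lay far above the other high prolificacy arrays, at 3.97 to 6.20. Of the 8, 5 were high 4. The other 4 of these were AHSG at 12.98 (others 6.66 to 8.32), APOB at 8.18 (2.88 to 3.63), SERPINA1 at 12.31 (5.29 to 5.89) and TTR at 8.44 (4.65 to 5.58). APOB in low 5, the low prolificacy array with the most HBE1, was at 5.42, against 2.48 to 3.92 in the other low prolificacy arrays.

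HBB in low 3, at 5.78, lay below the other low prolificacy arrays at 7.25 to 8.11. The poly-A spike-in mean of high 5, at 8.00, lay above the other high prolificacy arrays at 5.77 to 6.04.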

How the results depend on the processing

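HBE1 stayed lower in high prolificacy and uncalled in all 26 alternatives (-5.28 to -0.68, limma adjusted p from 0.26 to 1). HBB stayed lower and uncalled in 24 of 26. The others were the smooth muscle and epithelium covariates (0.43) and the fit without high 5 and low 3 (-0.92, adjusted p = 0.048). Without 1 array HBB lay between -1.63 and -0.70. HBE1 minus HBB was planned as a group comparison but is not reported, since the genes were chosen by these levels (-1.57 to 0.95 without 1 array). The count of called probe sets, 1885, was 3060 with array weights, 2925 at an adjusted p of 0.10, 877 with 1 probe set per gene, 0 with the 2 tissue covariates, and 944 to 2650 without 1 array. With the replicate block it was 35, and the HBE1 and HBB differences were -3.04 and -0.95. The labels' numbers mark different sows, and deviations of same-numbered arrays correlated between -0.25 and 0.42, with 1 of 5 high arrays closest to its own number, so the numbers are not a pairing. The direction of some other genes turned. With array weights HBM was -0.25, ALAS2 -0.49 and PAG6 -0.54. With the replicate block HBM was -0.43 and ALAS2 -0.87. With the trophoblast covariate HBM was -0.0025, ALAS2 -0.17 and PAG6 -0.74. With the tissue covariates AHSP was 0.54 and ITGB3 -0.083. Without high 5 and low 3 ALAS2 was -0.024. Without 1 array HBM lay between -0.027 and 0.38, ALAS2 between -0.12 and 0.54, and AHSP between -0.31 and 0.29. AHSP, BCL11A and ITGB3 were not among the 12000 brightest probe sets. The causes were not tested. Few arrays and unknown detection limit all values.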

Other observations

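Of 5 platelet and megakaryocyte genes 1 was called, where 5.34% of all genes rose and 5.42% fell. This was ITGB3, the integrin beta chain of platelets that endometrial epithelium also makes. It was at 5.23, 5.78, 6.12, 5.68 and 6.45 in high 1 to high 5, and from 4.84 over a median of 5.11 to 5.63 in low prolificacy. It rose by 0.67 ± 0.19 (SE, limma adjusted p = 0.041), and the call was lost with the same sign in 13 of 25 alternatives. Of 18 leukocyte genes 1 rose, S100A9, a calgranulin of neutrophils, by 2.46 ± 0.46 (SE, limma adjusted p = 0.0051), a share near that of all genes. Of 12 endothelial genes KDR rose and PECAM1 fell.

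Interferon gamma, IFNG, which the pig trophoblast secretes around attachment, was highest in high 4 at 6.67 and low 5 at 4.31, the arrays with the most HBE1, and lay between 2.45 and 3.29 in the other 12. It was not called between the groups (0.49 ± 0.56 SE, limma adjusted p = 0.70). IFNG was singled out from the trophoblast and fetal membrane list after its values were seen. Its r with HBE1 was 0.64, where the list ran from -0.63 to 0.67 with a median of 0.33.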
